A study of Arabidopsis thaliana with 75 samples.

Results

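Transcript levels in the developing root epidermis of the ttg mutant were compared with those of wild type. The means compared came from 6 of the 75 Affymetrix ATH1 arrays of the series, over all 21440 genes measured. The 6 arrays were the 3 of the ttg mutant and the 3 of wild-type Columbia analysed at Michigan. For each Michigan test, the error was estimated from all 63 Michigan arrays, not from these 6 alone. Those arrays form 21 groups, which include other mutants and rhd6 given the auxin IAA or the ethylene precursor ACC. The ttg line carried the ttg1-13 allele, a deletion induced by fast neutrons, together with the WER::GFP reporter. The wild type was of the Columbia ecotype and carried the same reporter. Both lines were taken as seedlings of 5 days, raised under constant light on medium with sucrose, root tips were cut, and cells with GFP fluorescence were collected by cell sorting. The WER promoter is active in the young epidermis and lateral root cap, so each array pooled epidermal and root cap cells of many roots. The study states that the reporter is on in both epidermal cell types, with a preference for non-hair cells. Wild-type epidermis holds both hair and non-hair cells, whereas the study counts ttg among its lines with too many hair cells. The mix of epidermal cell types therefore differs between the lines compared, and its share on each array was not measured. In such pooled RNA, fewer cells of a type and less RNA per cell cannot be told apart. The accession in which ttg1-13 was induced is not given in the sources used here.

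TTG1 encodes a WD40 repeat protein that joins MYB proteins (WER and MYB23 in the root) and bHLH proteins (GL3 and EGL3) in 1 transcription factor complex. In cells over a single cortical cell this complex turns on GL2, a homeodomain protein that blocks hair formation, and CPC, TRY and ETC1, small MYB proteins that move to the neighbouring file and allow hairs there. Roots of ttg mutants form hairs in nearly all files, as do roots of wer myb23 and gl3 egl3, whereas cpc try roots are almost hairless. TTG1 also acts in trichome formation, seed coat mucilage and the flavonoid pathway.

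The 6 arrays were alike in scale. Median log2 signals were 6.78, 6.78 and 6.75 on the ttg arrays and 6.79, 6.77 and 6.76 on the wild-type arrays, and the 5th percentile lay between 2.80 and 2.90 on all 6 arrays, so values near 3 are at the dim end of the array. The correlation across genes was between 0.981 and 0.991 for pairs of ttg arrays, between 0.979 and 0.987 for pairs of wild-type arrays, and between 0.965 and 0.985 for ttg with wild type (genes are not independent replicates). Array names in the labels fell into series. All 3 ttg arrays belonged to a numbered series, whereas only replicate 1 of wild type did, and replicates 2 and 3 of wild type carried the letters S and x. Among the other Michigan lines, replicate 2 of gl3 egl3 stood apart from its replicates 1 and 3 at several genes named here. Of 17 markers of ground tissue and stele none was called (0.882% of all genes were, so a list of this size would rarely hold one), their median difference was -0.10, and the log2 of their summed signal was 10.62, 10.44 and 10.67 in ttg and 10.83, 10.36 and 10.53 in wild type. None of 10 epidermis and root cap markers was called either, and a list of this size would also rarely hold one. Their median difference was -0.20, and 8 of the 10 were negative (80%), against 41.9% of all genes. They ranged from -1.33 for GL2 to 0.49. WER itself was bright in both lines, at 11.41, 11.74 and 11.24 in ttg and 11.73, 11.33 and 11.43 in wild type.

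TTG1 (AT5G24520) had log2 signals of 3.45, 2.87 and 3.81 on the ttg arrays, against 8.66, 8.29 and 8.09 on the wild-type arrays. All 3 ttg values were near the dim end of the array and lay far below every wild-type value. The difference was -4.97 ± 0.25 (SE, log2 units), a 31.3-fold lower signal in ttg (limma, adjusted p = 6.93e-20). At Duke, where no wild type was analysed, TTG1 stood at 4.93, 5.01 and 4.57 in ttg, against 7.55 to 8.29 in the wer myb23 and gl3 egl3 lines. The labels of the ttg arrays were thus borne out at both facilities.

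TTG1 was not the gene with the largest decrease, and it did not stand alone on chromosome 5. Among TTG1 and its 20 measured neighbours on either side, 7 genes were called (an adjusted p under 0.05 and a difference of more than 2-fold), against a background of 0.882% of all genes, and all 7 were lower in ttg. They lay among 11 successive measured genes from AT5G24430 to AT5G24530. No gene among the 11 measured before or the 19 measured after that stretch was called.

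DMR6 (AT5G24530), next to TTG1, encodes an oxygenase of salicylic acid metabolism whose loss makes plants resistant to downy mildew. Its log2 signal was 3.47, 3.07 and 4.11 in ttg, against 9.76, 10.11 and 9.70 in wild type, a difference of -6.31 ± 0.37 (79.2-fold lower; adjusted p = 1.31e-17). This was the largest decrease of any gene measured. On the other side of TTG1, AT5G24490 had 2.80, 3.24 and 3.68 in ttg and 8.55, 7.87 and 8.95 in wild type (difference -5.22 ± 0.48; adjusted p = 9.7e-11). AT5G24450 had 3.16, 3.29 and 3.20 in ttg and 8.45, 8.28 and 8.22 in wild type (-5.10 ± 0.16; adjusted p = 1.36e-28). In all 3 genes the ttg arrays were close to the dim end, as for TTG1. AT5G24430 also fell, by 4.88 on the log2 scale. The 2 genes between AT5G24490 and TTG1 were dim in wild type too: AT5G24500 had 2.89, 2.66 and 3.16 in ttg against 4.93, 4.84 and 4.91 in wild type, and AT5G24510 had 2.66, 2.22 and 2.49 against 3.77, 4.18 and 4.42. Both were called, AT5G24510 only narrowly (adjusted p = 0.0462).

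The lower genes did not form an unbroken run. Between AT5G24450 and AT5G24490, 3 measured genes were not called. AT5G24460 had 9.46, 9.05 and 9.25 in ttg, against 9.34, 8.99 and 8.69 in wild type. PRR5 (AT5G24470), a pseudo-response regulator of the circadian clock, had 8.0, 8.22 and 8.29 in ttg and 8.26, 9.03 and 8.38 in wild type, a difference of -0.39 ± 0.26. Both genes were thus bright in ttg. AT5G24480 was dim in both lines and 0.93 higher in ttg, which is less than 2-fold. CID13 (AT5G24440) had 3.04, 2.86 and 3.51 in ttg and 5.15, 5.26 and 3.85 in wild type, and its difference of -1.62 ± 0.98 did not pass the test (adjusted p = 0.87). On the separate Duke arrays, 6 of the 7 genes were called lower in ttg than in the other hairy lines, all but AT5G24510.

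**Figure D1:**
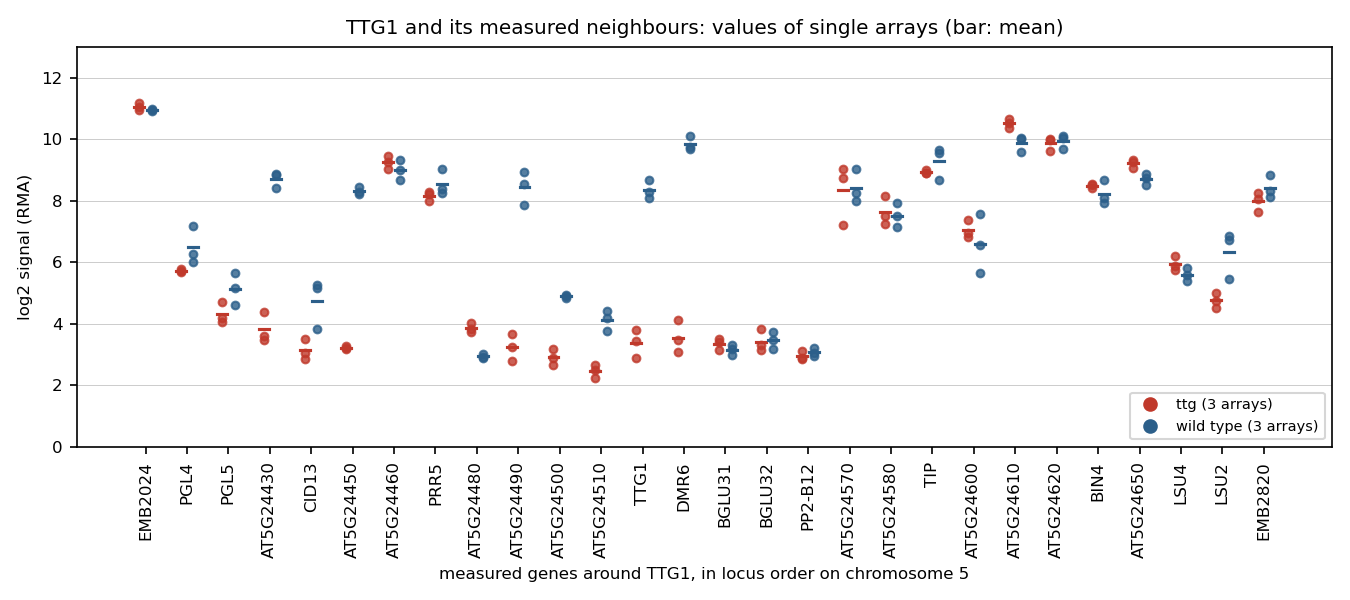
Log2 signal of TTG1 and nearby measured genes on each Michigan array, in locus order along chromosome 5; points are single arrays (ttg left, wild type right, 3 arrays a line) and short bars are means. Between AT5G24430 and DMR6, 7 genes lie 1.67 to 6.31 log2 units lower in ttg, and AT5G24460 and PRR5 among them stay near 8 to 9 in both lines.

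Over all genes, 189 of 21440 were called between ttg and wild type (0.882%). Of these, 51 were higher in ttg (0.238%) and 138 were lower (0.644%). In each of the 189 genes the 3 ttg arrays did not overlap the 3 wild-type arrays, which held for 3492 genes (16.3%) of all those measured. The median difference over all genes was 0.05, and 1522 genes had an unadjusted p under 0.05. The number of calls depended on single arrays: it was 97 without wild-type replicate 3, 118 without ttg replicate 1 and 120 without ttg replicate 3. The genes higher in ttg numbered 26 without ttg replicate 1, 31 without ttg replicate 3, 25 without wild-type replicate 2 and 27 without wild-type replicate 3. Within the numbered array series, where wild type had a single array, 46 genes were called.

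The largest increases were led by AT3G28320, with log2 signals of 11.45, 11.23 and 11.49 in ttg, against 4.61, 3.81 and 3.92 in wild type. It was thus among the bright genes of the array in ttg and a dim one in wild type, with a difference of 7.27 ± 0.87 (155-fold higher; adjusted p = 1.32e-07). It was high in ttg at Duke as well (9.29, 9.29 and 10.12), against 4.94 to 5.67 in wer myb23 and gl3 egl3. Another hairy line, gl2, was also high, with 8.43, 9.14 and 7.64 at Michigan, a mean 4.29 above the same wild-type arrays (adjusted p = 0.00873). The gene next to it in name, AT3G28310, had 10.70, 10.15 and 10.24 in ttg and 7.52, 5.99 and 6.76 in wild type (difference 3.60 ± 0.72; adjusted p = 0.0026). The other large increases were AT5G41660 (4.37), AT5G19100 (3.50), AT1G63540 (3.23), ACP5 (3.12), SQN (3.07), CYP705A32 (2.52), HAP8 (2.45) and AT5G23380 (2.32). ACP5 encodes an acyl carrier protein of fatty acid synthesis, SQN the cyclophilin SQUINT, and CYP705A32 a cytochrome P450. AT5G41660 is an example of a gene that was dim in wild type, at 2.95, 2.99 and 3.40, and clearly above that in ttg, at 7.46, 7.88 and 7.09. The increase of AT5G23380 was the weakest of these, with an adjusted p of 0.0262, and it was lost when single arrays were left out.

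Among the 10 largest decreases, 5 were genes of the TTG1 stretch. The other 5 were AT5G43030, AT5G45500, AT5G43040, CYP705A27 and NIC3. CYP705A27 (AT1G50520), a cytochrome P450 of the same family as CYP705A32, had 3.17, 2.78 and 3.04 in ttg, against 7.82, 7.46 and 8.18 in wild type (difference -4.83 ± 0.53; adjusted p = 1.72e-08). NIC3 (AT5G23220), a nicotinamidase that recycles nicotinamide toward NAD, had 6.05, 4.55 and 5.78 in ttg and 8.92, 10.32 and 10.46 in wild type (-4.44 ± 0.44; adjusted p = 9.5e-10). Neither gene had overlapping arrays, which the rule for naming the largest changes required. CYP705A27 was also low in ttg at Duke (5.25, 5.10 and 4.96), against 6.29 to 8.58 in the other hairy lines.

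AT5G43030, AT5G43040 and AT5G45500 lay about as far below wild type as TTG1 did at Michigan, but the other lines gave them a different pattern. AT5G43030 had 3.00, 2.75 and 2.70 in ttg, against 8.65, 8.31 and 8.76 in wild type (difference -5.76 ± 0.95; adjusted p = 0.000127). In gl3 egl3 at Michigan it had 2.78, 9.18 and 2.39, with replicate 2 high and the other two low, and in cpc try it had 2.91, 3.22 and 3.14. At Duke the ttg arrays were high, at 8.85, 9.0 and 9.03, and the gl3 egl3 arrays stood at 5.98, 5.60 and 5.92. The low signal of AT5G43030 in ttg was therefore seen at Michigan only, and the gl3 egl3 arrays of Michigan did not agree among themselves.

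AT5G43040 followed AT5G43030, with 3.18, 3.06 and 3.87 in ttg and 8.37, 8.32 and 8.31 in wild type at Michigan, and with 8.33, 8.17 and 8.61 in ttg at Duke. AT5G45500 had 5.31, 4.71 and 4.60 in ttg and 10.20, 9.94 and 9.95 in wild type, and its gl3 egl3 arrays at Michigan again split, at 3.72, 10.92 and 3.18. In cpc try at Michigan, however, AT5G45500 was bright (10.34, 9.92 and 9.30). The spread within gl3 egl3 entered the shared error of these genes. When gl3 egl3 replicate 2 was left out, a choice made after its values were seen, the adjusted p of AT5G43030 became 1.79e-07 and that of AT5G45500 1.32e-15.

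The share of called genes differed between chromosomes. Chromosome 5 had 61 called of 4904 genes (1.24%) and chromosome 3 had 44 of 4262 (1.03%), whereas chromosome 4 had 8 of 3171 (0.252%). When the measured genes were divided in locus order into 88 windows of 250 (the last of each chromosome was shorter), 33 windows held no called gene. In 13 windows there were 5 or more, a limit set after the counts were seen, and these held 107 of the 189 called genes, 29 higher and 78 lower in ttg. The windows were picked for these counts, so their excess over the other windows is no finding. Without wild-type replicate 3, the 13 windows held 60 called genes. How far the ttg line had been backcrossed to Columbia is not given in the sources used here, and whether differences in genetic background are among the called genes was not tested.

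The window of AT5G23240 to AT5G26680, which contains TTG1, held 16 called genes, 4 higher and 12 lower. Outside the stretch around TTG1 it included COL4 (AT5G24930), a CONSTANS-like protein, which fell by 2.60 (adjusted p = 6.3e-07), and CYP714A2 (AT5G24900), a cytochrome P450 of gibberellin metabolism, which was 1.88 higher (adjusted p = 2.4e-05). SGS3 (AT5G23570), a protein of RNA silencing, had 8.02, 8.45 and 7.69 in ttg and 5.93, 6.32 and 6.17 in wild type (difference 1.91 ± 0.44; adjusted p = 0.0128), but this call was lost without any 1 of ttg replicates 1 and 2 and wild-type replicates 1 and 3, with adjusted p between 0.0564 and 0.115. A window further along the chromosome, AT5G42760 to AT5G45810, held the most called genes, 17, of which 15 were lower in ttg, among them AT5G43030, AT5G43040 and AT5G45500. On chromosome 1, AT1G59590 to AT1G62910 held 14 called genes, and on chromosome 3, AT3G26930 to AT3G30320, which contains AT3G28310 and AT3G28320, held 9.

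The same 13 windows held 3250 of the 21440 genes. There the comparison of wer myb23 with the same wild-type arrays called 0 genes of its 4. That of gl3 egl3 called 6 of its 33, that of gl2 8 of its 46 and that of cpc try 140 of its 888. For gl3 egl3, gl2 and cpc try these were 0.185%, 0.246% and 4.31% of the genes in the windows. Over all genes the shares were near those, at 0.154%, 0.215% and 4.14%. The windows were picked on the ttg counts, so the ttg count there cannot be set against these. On the Duke arrays, ttg differed from the other hairy lines at 79 of the 3250 genes in these windows (2.43%) and at 319 of 18190 outside them (1.75%). The Duke arrays differed between windows. The window with TTG1 held 15 genes called at Duke (6%) and the chromosome 1 window held 11 (4.4%), against 1.86% over all genes, but the window of AT5G42760 to AT5G45810, the richest at Michigan, held 3 (1.2%).

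**Figure D2:**
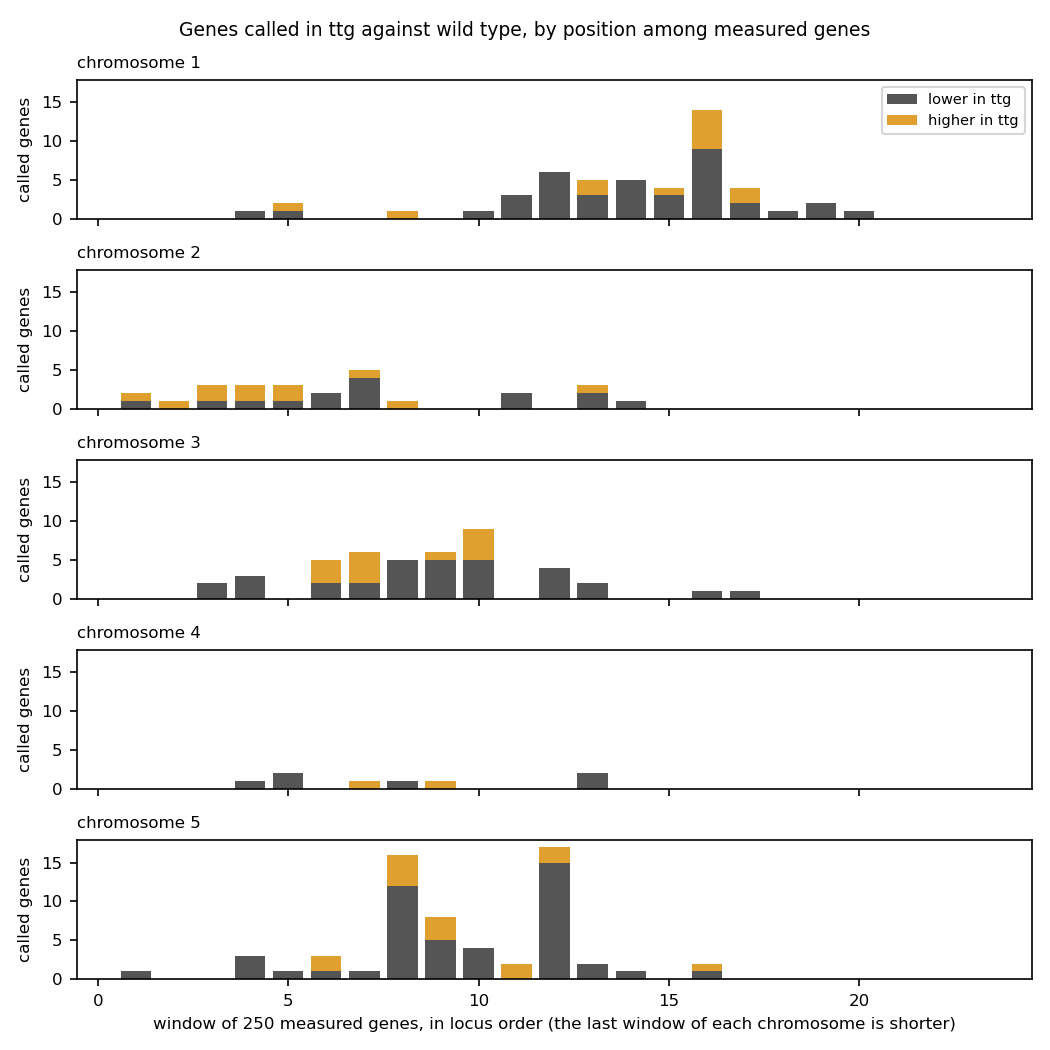
Number of genes called between ttg and wild type at Michigan (y axis) in each window of 250 measured genes in locus order (x axis), 1 panel for each of the 5 chromosomes; stacked bars give genes lower and genes higher in ttg. The tallest windows, with 17 and 16 called genes, lie on chromosome 5, and the one with 16 contains TTG1, whereas 33 windows are empty.

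Of the regulators of cell fate, 17 of 19 were measured, and TTG1 was the only one called. The median difference of the 17 was -0.01. The small MYB inhibitor TRY had 7.18, 7.79 and 6.65 in ttg, against 9.61, 9.0 and 8.69 in wild type. Its arrays did not overlap, but the difference of -1.89 ± 0.56 did not pass the test over all genes (adjusted p = 0.108). GL2 had 7.37, 6.90 and 6.67 in ttg and 9.08, 8.04 and 7.81 in wild type, again without overlap, with a difference of -1.33 ± 0.60 (adjusted p = 0.589). EGL3, a bHLH partner of TTG1, had 8.43, 8.38 and 8.30 in ttg and 7.99, 6.73 and 6.39 in wild type, a difference of 1.33 ± 0.49 (adjusted p = 0.318). TTG2, a WRKY factor that acts with GL2, had 6.17, 6.43 and 6.70 in ttg and 7.10, 6.95 and 6.93 in wild type (-0.56 ± 0.40; adjusted p = 0.949).

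The other measured regulators of cell fate differed by less than these. The MYB partners of TTG1 stood at -0.03 (WER) and -0.02 (MYB23), and the bHLH protein MYC1 at 0.34. CPC, which moves between cells, was bright in both lines (10.42, 10.17 and 10.58 in ttg, 10.77, 10.81 and 10.63 in wild type) and differed by -0.35 ± 0.21. Its relatives ETC1 and ETC2 differed by 0.02 and 0.27. SCM, the receptor-like kinase that passes the positional signal, differed by 0.42, JKD, a zinc finger protein upstream of it, by -0.08, and GEM, a regulator of cell division and fate, by 0.05. GL1, TT8 and MYB5, which act with TTG1 in trichomes and seeds, were near the dim end of the array in both lines and differed by 0.08, 0.01 and -0.01. GL3 and CPL3 were not measured. The bHLH factors that promote hair growth in hair cells were not called either: RHD6 differed by 0.29 ± 0.33, RSL4 by -0.31 ± 0.44, LRL1 by 0.61 ± 0.62 and LRL3 by -0.07 ± 0.53.

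The same regulators in the other lines, set beside the same wild-type arrays, give the scale. TRY averaged 7.21 in ttg, 6.72 in wer myb23, 7.71 in gl3 egl3 and 11.71 in cpc try, against 9.10 in wild type. The wer myb23 value of TRY came from arrays at 8.33, 4.66 and 7.17. In cpc try, TRY itself carries a nonsense mutation, so the value there is the signal of a mutant allele. GL2 averaged 6.98 in ttg, 8.0 in wer myb23, 5.41 in gl3 egl3 and 10.37 in cpc try, against 8.31 in wild type. The gl3 egl3 value of GL2 hid a spread from 2.92 in replicate 1 to 8.52 in replicate 2. In both genes, ttg averaged below wild type, without a call, and far below cpc try. The study had chosen both as more abundant in cpc try than in each hairy line, partly on these ttg arrays. The gap to cpc try is therefore no independent evidence.

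**Figure D3:**
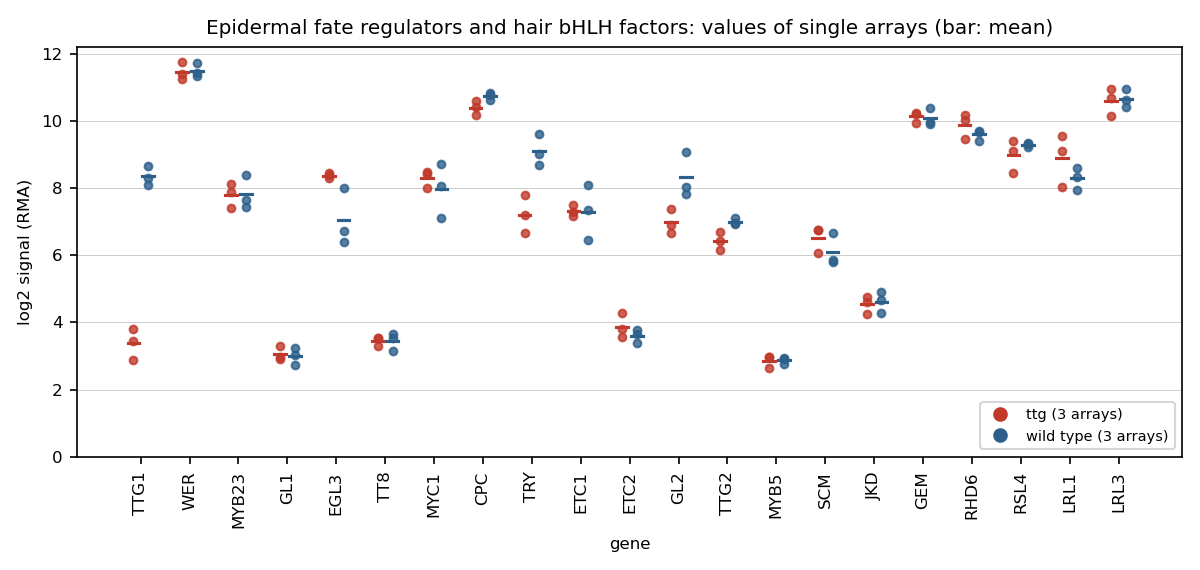
Log2 signal (y axis) of regulators of epidermal cell fate and of hair bHLH factors (x axis) on each Michigan array; points are single arrays (ttg left, wild type right, 3 arrays a line) and short bars are means. TTG1 separates the lines by 4.97 log2 units, TRY and GL2 lie lower in ttg without overlap, and WER, MYB23 and GEM lie close together.

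Core genes of epidermal differentiation had been defined by the study from comparisons of the hairy lines, ttg among them, with cpc try. The ttg arrays used here took part in that choice, so the counts below are no independent evidence on these lists. Of the 54 core non-hair genes, chosen as lower in hairy roots than in cpc try, 3 were called between ttg and wild type, all lower in ttg, against 0.644% lower over all genes. The median difference of the list was -0.43, against 0.05 over all genes. Of its members 40 were negative (74.1%), against 41.9% of all genes. More than 2-fold lower were 16, a size reached by 583 of all 21440 genes. The median log2 signal of the list was 6.78, 6.83 and 6.50 on the ttg arrays and 7.23, 7.83 and 7.36 on the wild-type arrays.

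The called non-hair genes were AT2G45220, XTH33 and NPC2. AT2G45220, a pectin methylesterase (PME17), had 5.55, 6.20 and 4.89 in ttg, against 8.99, 9.34 and 9.31 in wild type (difference -3.67 ± 0.66; adjusted p = 0.000526). XTH33, a xyloglucan endotransglucosylase/hydrolase of the cell wall, had 5.30, 4.91 and 4.50 in ttg and 7.68, 7.82 and 9.25 in wild type (-3.35 ± 0.54; adjusted p = 8.86e-05). NPC2, a phospholipase C, had 5.64, 5.44 and 5.71 in ttg and 7.35, 7.77 and 7.29 in wild type (-1.88 ± 0.44; adjusted p = 0.0158). In each of the 3 genes every ttg array was below every wild-type array, and none of the 189 called genes had overlapping arrays. XTH17 differed by -2.32 and narrowly missed the threshold (adjusted p = 0.053). The count was 2 without any 1 of ttg replicates 1, 2 and 3 or wild-type replicates 2 and 3.

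Of the 154 core hair genes, chosen as higher in hairy roots than in cpc try, 1 was called, and it was lower in ttg. That share is about the background of 0.644% called lower over all genes, so the count says nothing particular about the list. The list had a median difference of -0.18, with 107 members negative (69.5%), against 41.9% of all genes. Its median signal was 9.11, 8.72 and 9.19 on the ttg arrays and 9.18, 9.07 and 9.17 on the wild-type arrays, so ttg replicate 2 was the lowest of the 6 arrays and the other two ttg arrays lay around the wild-type values. The called gene, AT4G15390, had 6.82, 7.83 and 6.31 in ttg, against 9.12, 8.69 and 9.93 in wild type (difference -2.26 ± 0.35; adjusted p = 3.07e-05). At Duke it had 9.09, 8.97 and 9.55 in ttg, within the range of the other hairy lines (7.84 to 10.77).

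Set beside these, the other hairy lines differed from the same wild-type arrays by few genes as well: 4 genes were called for wer myb23 (0.0187%) and 33 for gl3 egl3 (0.154%), against 888 for cpc try (4.14%). The median of the core hair genes was -0.18 in ttg, 0.22 in wer myb23, 0.14 in gl3 egl3 and -3.82 in cpc try. That of the core non-hair genes was -0.43 in ttg, -0.65 in wer myb23, -0.49 in gl3 egl3 and 1.66 in cpc try. These comparisons share the wild-type arrays and are given only side by side. The gl3 egl3 values include replicate 2, which stood apart at some non-hair genes, such as AT2G45220 (4.77, 8.98 and 5.19). Its effect on the gl3 egl3 medians and calls was not tested.

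Of the genes that carry out hair growth, none was called among 23 genes of tip growth or among 13 of the hair cell wall, and at 0.882% called over all genes lists of this size would rarely hold one. The tip growth genes had a median difference of -0.14 and ranged from -0.67 for FER, a receptor-like kinase, to 0.54 for ROPGEF3, an activator of ROP GTPases. ROP2, the GTPase that marks the site of the hair, differed by -0.04, RHD2, the NADPH oxidase of the growing tip, by 0.07, and CSLD3, a cellulose synthase-like protein, by 0.05. Of the 13 hair cell wall genes 12 were negative (92.3%), against 41.9% of all genes, and their median was -0.52. Without passing the test, 4 were more than 2-fold lower, a size reached by 583 of all 21440 genes. EXPA18, an expansin of hair cells, stood at -1.31, and the xyloglucan enzymes XTH13, XTH26 and XTH12 at -1.20, -1.14 and -1.07.

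TTG1 is known as a regulator of flavonoid genes, and 26 of 28 genes of that pathway were measured. None was called, against 0.882% of all genes, and their median difference was -0.09. CHS, chalcone synthase, had 6.52, 5.46 and 7.04 in ttg, against 7.32, 7.91 and 8.42 in wild type, a difference of -1.54 ± 0.70 that did not pass the test (adjusted p = 0.588). FLS3, of the flavonol synthase family, had 4.61, 4.52 and 4.95 in ttg and 6.24, 6.02 and 6.02 in wild type (-1.40 ± 0.44; adjusted p = 0.162). Neither gene had overlapping arrays. DFR, BAN and TT2, late genes of the pathway and their MYB regulator, were near the dim end in both lines, with differences of 0.56, 0.16 and 0.02. MYB12, a regulator of early flavonol genes, was bright and differed by -0.08.

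In the lists for iron (14 genes), phosphate (10), nitrogen and potassium (6), glucosinolates (15), cell cycle (9) and stress (13), no gene was called. At 0.882% called over all genes, lists of this size would rarely hold one, so these counts say nothing particular about the lists. The medians lay between -0.21 and 0.21. Of 7 genes of the thalianol and marneral clusters, triterpene pathways of the root, 1 was called, against 0.882% of all genes. THAA2 (AT5G47980), an acyltransferase of the thalianol pathway, had 6.29, 6.0 and 5.88 in ttg and 8.03, 7.53 and 9.18 in wild type (difference -2.19 ± 0.45; adjusted p = 0.00385). The call was lost without wild-type replicate 3, with an adjusted p of 0.138. THAS, the thalianol synthase, differed by -0.51 and was not called.

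**Figure D4:**
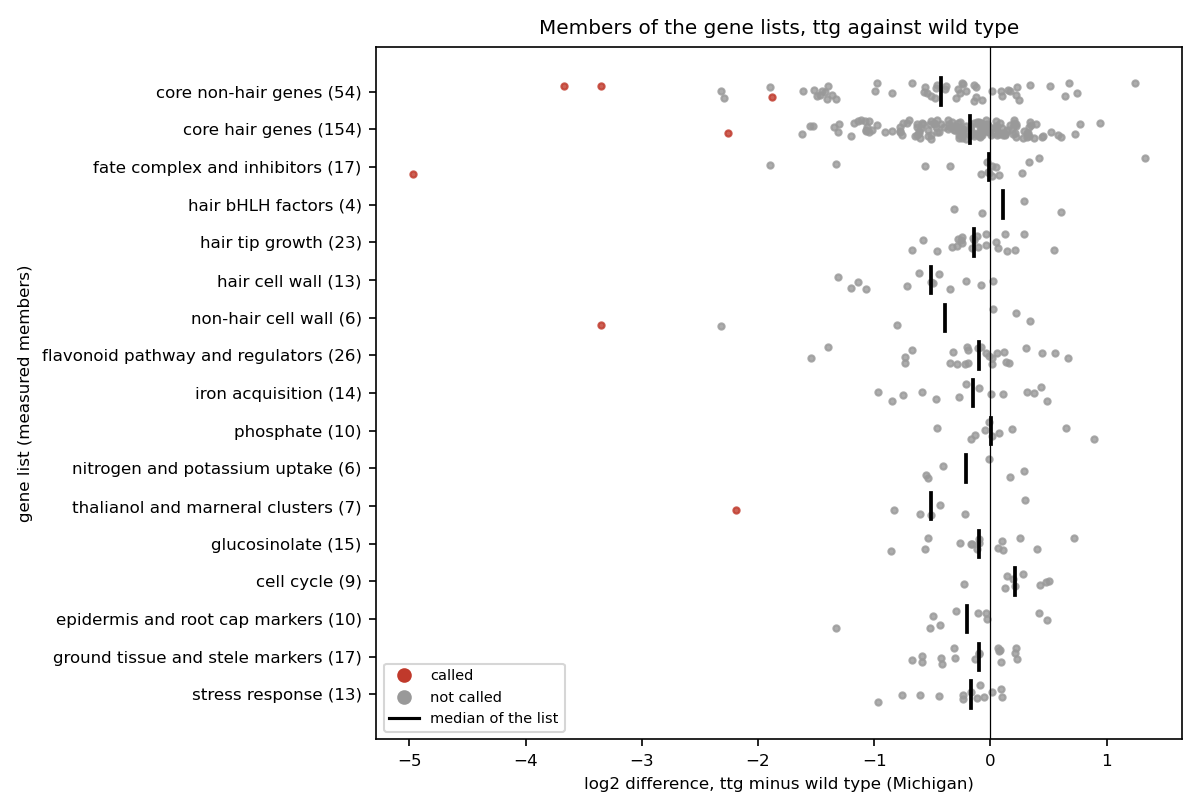
Difference in log2 signal, ttg minus wild type at Michigan (x axis), for each measured member of the gene lists (rows), 1 point a gene, with called genes in red and a black bar at the median of each list. Most members lie within 1 log2 unit of 0, the core non-hair genes reach down to -3.67, and TTG1 is the lone called point among the fate regulators.

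The Duke arrays gave an independent set of ttg samples, but no wild type. There ttg could be set against the mean of wer myb23 and gl3 egl3, the lines with the same hairy roots. By that comparison 398 genes were called at Duke (1.86%), 327 higher (1.53%) and 71 lower (0.331%) in ttg. At Michigan the comparison with the same lines called 238 genes (1.11%), 84 higher (0.392%) and 154 lower (0.718%). Between the facilities, 51 genes were called at both, which is 12.8% of the Duke list and 21.4% of the Michigan list, and 48 of them had the same direction, 20 higher and 28 lower in ttg. The Duke count was the less firm of the 2: it was 129, 134 and 194 without ttg replicate 2, 1 and 3, and it was 669 against wer myb23 alone and 2962 against gl3 egl3 alone. The Michigan count was 112 without ttg replicate 2. The 48 genes became 30 without ttg replicate 1 and 22 without ttg replicate 2.

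Of the 189 genes called against wild type at Michigan, 40 were called at Duke against the other hairy lines, 21.2% of the first list and 10.1% of the second, and 37 of these had the same direction. Counting signs alone, 159 of the 189 (84.1%) differed in the same direction at Duke, against 53.7% of all genes. The share was 86% (92 of 107) in the 13 rich windows and 81.7% (67 of 82) outside them.

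Of the 28 genes called lower in ttg at both facilities, those with the largest difference from the other hairy lines at Michigan were DMR6, AT5G24450, TTG1, GLR2.1 and AT5G26270. GLR2.1 (AT5G27100), a glutamate receptor-like channel, had 3.32, 2.81 and 3.57 in ttg and 7.63, 7.41 and 7.05 in wild type at Michigan. At Duke it had 5.52, 5.36 and 5.30 in ttg, against 7.32, 7.15 and 8.09 in wer myb23. The gl3 egl3 arrays (6.48, 5.80 and 5.81) and the cpc try arrays (5.75, 5.58 and 5.73) at Duke lay closer to ttg. AT5G26270 was 4.21 lower than wild type at Michigan and 4.00 lower than the other hairy lines at Duke, where its ttg arrays stood at 5.76, 5.50 and 5.56, against 7.38 to 11.32.

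Of the 20 genes called higher at both facilities, those with the largest difference at Michigan were AT3G28320, AT5G19100, CYP705A32, SGS3 and HAP8. AT5G19100 had 10.07, 10.29 and 10.49 in ttg and 6.51, 6.99 and 6.87 in wild type at Michigan, and 10.33, 10.40 and 10.44 in ttg against 6.23 to 9.79 in the other hairy lines at Duke. In gl2 at Michigan it had 7.30, 9.88 and 9.10, which is 1.97 above wild type (adjusted p = 0.0163). Its signal in cpc try differed between the facilities, from 5.82 to 6.89 at Michigan and from 10.35 to 10.83 at Duke. CYP705A32 was 2.52 higher than wild type at Michigan and 1.73 higher than the other hairy lines at Duke. For SGS3 the values were 1.91 and 1.07, and for HAP8 2.45 and 1.01, which are among the smaller of the differences called at Duke. AT1G62290, chosen after its values were seen, was further from the other hairy lines at Duke (3.53) than at Michigan (1.87).

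The order at Duke was another one. ACLA-2 (AT1G60810), a subunit of ATP citrate lyase that is outside the rule for named genes and was chosen after its values were seen, was the furthest below the other hairy lines there (-5.06), whereas GLR2.1 differed by -1.38. ACLA-2 had 6.68, 7.0 and 6.62 in ttg at Michigan, against 10.89, 11.04 and 11.12 in wild type, and 5.69, 5.61 and 5.66 in ttg at Duke, against 10.33 to 11.20 in wer myb23 and gl3 egl3. No other line of those compared had an average under 10.5 for this gene.

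For other large changes at Michigan, ttg differed little from wer myb23 and gl3 egl3 at Duke. AT5G41660, 4.37 higher than wild type, differed by 0.54 from the other hairy lines at Duke (adjusted p = 0.054), AT1G63540 by -0.09 and ACP5 by 0.38 (adjusted p = 0.109). XTH33, a core non-hair gene, differed by -0.11 at Duke, with 5.61, 5.71 and 5.83 in ttg against 5.38 to 6.18 in wer myb23 and gl3 egl3. It also lay below wild type at Michigan in those lines, with differences of -1.86 in wer myb23 and -2.21 in gl3 egl3. Against cpc try at Duke, XTH33 was -2.15 in ttg, but its choice as a core non-hair gene on these arrays fixed that direction. AT1G63540 was 1.14 against cpc try at Duke (limma, adjusted p = 0.00224), the direction seen against wild type. The comparison with the hairy lines has no wild type, so it bears only on what ttg does not share with wer myb23 and gl3 egl3.

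**Figure D5:**
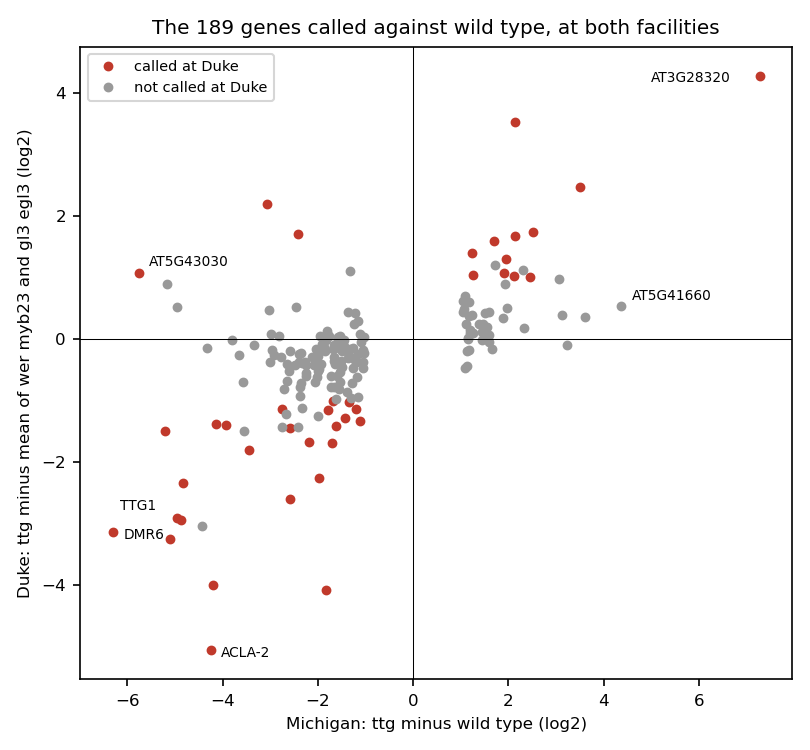
Each gene called between ttg and wild type at Michigan, with that difference in log2 signal (x axis) against the difference of ttg from the mean of wer myb23 and gl3 egl3 on the separate Duke arrays (y axis, log2); red points were also called at Duke. Of the 189 genes, 159 have the same sign on both axes, AT3G28320 lies at 7.27 and 4.28, and AT5G43030 lies at -5.76 and 1.08.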

How the data were processed

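The deposited values are log2 signals that the authors obtained with RMA and quantile normalization from Affymetrix ATH1 arrays, with probes regrouped so that each gene has 1 value per array. They entered the fits unaltered. Without 64 control probe sets, 21440 genes were tested. Whether the facilities were normalized together is not given in the sources used here, so each was fitted on its own.

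With limma 3.58.1 in R 4.3.3 (lmFit, eBayes), group means were estimated from all 63 Michigan arrays (21 groups of 3), and ttg was contrasted with wild type. Benjamini-Hochberg adjustment ran over all genes, and a gene was called at 5% FDR and more than 2-fold. The 12 Duke arrays (4 groups) were treated alike. Each SE is the moderated one, on the log2 scale. The number of arrays limits the precision. The labels describe the arrays of a line as biological replicates.

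Genes named are TTG1, the 10 largest changes in each direction without overlap, called list members (up to 8 a list), all members of the fate, bHLH and flavonoid lists, called neighbours of TTG1, and the 5 largest differences in each direction from the other hairy lines called at both facilities. The genes and lists were chosen with earlier results of these data known. Gene order and names came from the RefSeq annotation, in which 21222 loci were matched. Dim genes and genes that share probes (AT5G45428 and AT5G45430 have identical values) are uncertain. Promoter motifs and sequences were not analysed here.

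Replicate numbers were shared between lines, but did not pair the arrays. Alternatives were a fit of the 6 arrays alone, the replicate block, the array series as a factor, a median shift, a further quantile normalization, a filter on dim genes (log2 of 5), trend and robust moderation, an unadjusted p under 0.01, FDR alone, and leaving out each array. The numbered array series alone and the fit without gl3 egl3 replicate 2 were chosen after seeing the data.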

Additional observations from a re-analysis of the deposited data

Results flagged for a closer look

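Of the 51 genes called against the other hairy lines at both facilities, 3 differed in opposite directions. In these 3, every ttg array lay on one side of the mean of those lines at Michigan and on the opposite side at Duke. The difference between the facilities was not tested. GSTU14 (AT1G27140), a glutathione transferase, was -1.16 from the other hairy lines at Michigan and 1.28 at Duke. Its signal was 9.38, 7.86 and 9.41 in ttg at Michigan and 9.44, 9.20 and 9.39 in ttg at Duke, and the gl3 egl3 arrays stood at 9.93, 9.66 and 10.36 at Michigan but at 6.58, 6.79 and 6.46 at Duke. The wer myb23 arrays at Duke stood at 8.83, 10.07 and 9.65, so that positive difference rests on gl3 egl3 too. AT2G33830 was -1.95 at Michigan and 1.83 at Duke, with 7.05, 7.95 and 7.02 in ttg at Michigan and 8.58, 8.52 and 9.10 in ttg at Duke. AT5G43030 was -3.94 at Michigan and 1.08 at Duke. Its ttg arrays were near 3 at Michigan and near 9 at Duke. The Duke ttg values, 8.85 to 9.03, lay below every wer myb23 array (9.65, 10.05 and 10.07) and above every gl3 egl3 array (5.98, 5.60 and 5.92), so the positive difference rests on gl3 egl3. Groups of 3 arrays are too small for a search for single deviating arrays.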

How the results depend on the processing

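No result turned its direction under any alternative. The 189 called genes (51 higher and 138 lower in ttg) became 332 (259 lower) when only the 6 arrays were fitted, 126 (29 higher) with the array series as a factor, 427 (107 higher and 320 lower) at an unadjusted p under 0.01, and 46 (12 higher and 34 lower) within the numbered array series, which was chosen after seeing the data and leaves 1 wild-type array, assumed to vary like the other groups. Leaving out 1 array at a time gave 97 to 179 called genes, 25 to 53 higher and 70 to 126 lower; the lowest total was without wild-type replicate 3. Without gl3 egl3 replicate 2, also chosen after seeing the data, 211 were called (57 higher and 154 lower), 113 of them in the rich windows, and 236 against the other hairy lines at Michigan, with 53 in the same direction at both facilities. The median shift, renormalization, dim filter, moderation and FDR alone gave 158 to 213. Called core hair genes numbered 6 in the fit of 6 arrays and 3 at the unadjusted p, against 1. Called core non-hair genes numbered 10 in each of these, 0 within the numbered series and 5 without gl3 egl3 replicate 2, against 3, and 2 to 3 with 1 array left out. The 107 called genes of the rich windows became 71 with the series factor, 171 at the unadjusted p and 28 within the numbered series, and 60 to 96 with 1 array left out. Against the other hairy lines, a fit of only their arrays called 150 genes at Michigan and 232 at Duke, against 238 and 398. Leaving out 1 ttg array gave 112 to 168 at Michigan, 129 to 194 at Duke and 22 to 33 genes called in the same direction at both, against 48. At Duke 669 genes were called against wer myb23 alone and 2962 against gl3 egl3 alone. Deviations of arrays with the same replicate number correlated at 0.06, -0.15 and 0.08, so the numbers did not pair the arrays; the replicate block called 195 genes, and 583 at Duke, and changed the call of no named gene. Of 75 named genes, 30 were called, 25 of these without any 1 array and 19 under every setting. The calls of AT5G24510, AT5G23380, NPC2, SGS3 and THAA2 were lost when single arrays were left out. Decreases to values near 3 are limited by the dim end of the array.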

Other observations

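Several further genes with known roles were called between ttg and wild type at Michigan; they were chosen after their values were seen and have no test beyond the one over all genes. Among transcription factors, HDG1, a homeodomain protein of the same class as GL2, averaged 5.85 ± 0.23 in ttg and 7.49 ± 0.05 in wild type (SD, n = 3 arrays each; limma, adjusted p = 0.00253). WRKY14 averaged 7.79 ± 0.09 in ttg and 9.09 ± 0.36 in wild type (adjusted p = 0.0171), and MYB4, a repressor of phenylpropanoid genes, averaged 3.19 ± 0.32 in ttg and 6.01 ± 0.49 in wild type (adjusted p = 0.0192). Each of these was lower in ttg. At Duke, against the other hairy lines, HDG1 differed by -0.41, WRKY14 by -0.95 and MYB4 by 0.05.

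Transport and signalling genes were among the decreases as well. GORK, an outward potassium channel of root hairs and guard cells, averaged 7.44 ± 0.17 in ttg and 8.70 ± 0.21 in wild type (adjusted p = 0.00161). CLE41, the precursor of a peptide signal of the vascular tissue, averaged 5.06 ± 0.44 in ttg and 7.83 ± 0.77 in wild type (adjusted p = 0.000658). ARR3, a response regulator of cytokinin signalling, averaged 9.36 ± 0.37 in ttg and 10.85 ± 0.35 in wild type (adjusted p = 0.00143).

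GSTU8, a glutathione transferase, and ATG8C, an autophagy protein, were lower in ttg by like amounts at both facilities. GSTU8 differed by -2.60 from wild type at Michigan and by -2.60 from the other hairy lines at Duke, and ATG8C by -1.70 in both. LEA7, a late embryogenesis protein, averaged 10.51 ± 0.49 in ttg and 12.35 ± 0.63 in wild type at Michigan, and at Duke differed by -4.08. BGAL4, a galactosidase, averaged 7.03 ± 0.67 in ttg and 10.07 ± 0.60 in wild type, whereas at Duke it differed by 0.46 from the other hairy lines. Relative to the same wild-type arrays, BGAL4 differed by -2.08 in wer myb23 and by -2.13 in gl3 egl3.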
